A study of Danio rerio with 9 samples.

Results

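The 6 genes described here, lonrf1, lonrf1l, wdr76, rilp, crtac1a and fam213b, were chosen by measured values of these same 9 libraries, their RNA in Müller glia of the zebrafish retina being high 8 hours after a light lesion and lower again 8 hours later. They are 6 of 33737 genes in the deposited count table, were found there by the gene names of the authors' annotated table, and all 6 were among the 19875 genes with enough counts to be tested. Müller glia, the radial glia of the retina, were sorted by their fluorescence from dissociated neural retinas of Tg(gfap:EGFP)mi2002 fish aged 8 to 11 months, in which the gfap promoter drives the fluorescent protein in the glia. There were 3 groups of 3 RNA-seq libraries: fish without a lesion, called 0 hours post lesion (hpl), and fish taken at 8 hpl and 16 hpl following exposure for 30 min to light above 120000 lux. All 9 libraries carry the transgene. The labels do not say whether libraries of a group came from separate fish or pools, so p-values measure the spread between these libraries, which may be technical. The labels name no unlesioned group taken at the later hours, so effects of the lesion, of bright light itself and of the hour at which fish were taken cannot be told apart.

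Lonrf1 proteins join a RING finger, the domain by which many ubiquitin ligases recruit their partner enzymes, to a LON substrate-binding domain, and lonrf1 is among the genes that light turns on in zebrafish cells and tissues. In human cells, WDR76 is a WD-repeat protein found with the DDB1 and CUL4 ubiquitin ligase and with the chromatin remodeller HELLS. In mammals, RILP is an effector of the small GTPase RAB7 that ties late endosomes and lysosomes to the dynein motor, CRTAC1 is a secreted protein with an antagonist role at the Nogo receptor, and FAM213B is a thioredoxin-like enzyme of prostaglandin F synthesis.

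Total expected counts ranged from 11714633 to 26608088 per library. Levels are given as CPM, expected counts brought to the same corrected library size (TMM factors, a trimmed mean of log ratios), unless FPKM is named. Libraries 8 hpl replicates 1 and 3 and 16 hpl replicate 2 stood apart from the other 6 on the first principal component, which held 35.6% of the variance, at scores of 48.0, 53.5 and 74.7 against -37.9 to -14.7. They also had the 3 lowest levels of the clock gene per1b, with 181, 195 and 369 CPM against 664 to 1490 CPM in the other 6. Results are therefore given with and without these 3 libraries, although without them the 8 hpl group is replicate 2 alone, assumed to vary like the other groups. The 3 were picked by their values in these data. P-values and counts from fits without them are therefore a description and no sign that a call is stable. The glial markers gfap and rlbp1a were present in every library, at 60.2 to 168 and 134 to 436 CPM. RNA of the rod gene rho was far higher, at 21250 to 72130 CPM, so the libraries were not glial RNA alone. In such bulk samples, fewer cells of a type and less RNA per cell cannot be told apart.

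Few genes had the shape by which the 6 were chosen. With edgeR's quasi-likelihood test and a Benjamini-Hochberg adjusted p under 0.05, 378 genes (1.9% of those tested) were higher and 185 (0.931%) lower at 8 hpl than at 0 hpl. Between 16 and 8 hpl, 12 genes (0.0604%) were higher and 8 (0.0403%) lower. All 6 selected genes were among those higher at 8 hpl than at 0 hpl, and 4 of them, wdr76, lonrf1l, lonrf1 and rilp, were among the 8 lower at 16 hpl than at 8 hpl. Only 6 genes in all (0.0302%) did both in this fit, the other two being zgc:65997 and abcb6a, whose mammalian counterpart carries porphyrins across membranes. crtac1a and fam213b were lower on average at 16 than at 8 hpl but did not pass in this fit. Both passed without 8 hpl replicate 2 (edgeR adjusted p = 0.0149 and 0.00318). With DESeq2 on all 9 libraries fam213b passed (adjusted p = 0.00743) and crtac1a did not (adjusted p = 0.139). Since these contrasts chose the genes, the counts and the values below are a description. The calls at 8 hpl over 0 hpl were lost for rilp without replicate 1 of 0 hpl and without replicate 1 or 3 of 8 hpl, and for crtac1a without 0 hpl replicate 1, 2 or 3. All 3 libraries of 8 hpl lay above the other 6 in 745 of the genes tested (3.75%). The count of 6 depended on single libraries. It was 0 without any 1 of 0 hpl replicates 1, 2 and 3, 8 hpl replicates 1 and 3 and 16 hpl replicates 1 and 3, 309 without 8 hpl replicate 2, 19 without 16 hpl replicate 2 and 35 without the 3 libraries that stood apart. In the fits with 0, edgeR called no gene between 16 and 8 hpl, with 1609 to 3056 genes at an unadjusted p under 0.05, while DESeq2 on all 9 libraries gave 203 genes of this shape.

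lonrf1 (ENSDARG00000075048) was evenly high at 8 hpl. Its levels were 74.2, 68.1 and 68.6 CPM at 0 hpl, 353, 289.6 and 356 CPM at 8 hpl and 94.8, 61.0 and 108 CPM at 16 hpl. All 8 hpl libraries lay above the other 6, and the 16 hpl values fell on both sides of the 0 hpl ones. The log2 fold change was 2.24 ± 0.23 (SE) at 8 hpl over 0 hpl, a 4.73-fold difference, and -1.92 ± 0.23 at 16 hpl over 8 hpl. Within 8 hpl the highest value was 1.23 times the lowest, where the median of 12378 genes of at least 5 CPM was 1.39. Without the 3 libraries that stood apart the log2 fold changes were 2.04 and -1.51.

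lonrf1l (ENSDARG00000078567), which the authors' table lists under a separate identifier, reached the highest level of the 6. Its levels were 82.9, 88.2 and 141 CPM at 0 hpl, 1159.6, 497 and 1149 CPM at 8 hpl and 175, 179.6 and 187 CPM at 16 hpl. The 3 groups did not overlap, and the 16 hpl libraries agreed within 1.07 times while the 8 hpl libraries spread over 2.33 times, replicate 2 being the low one. The log2 fold change was 3.17 ± 0.36 at 8 hpl over 0 hpl, or 8.98-fold, and -2.37 ± 0.35 at 16 hpl over 8 hpl, and was 2.25 and -1.44 without the 3 libraries that stood apart.

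Whether lonrf1 and lonrf1l are separate loci is not settled by the files. A gene name table gives the identifier of lonrf1l the symbol lonrf1 and that of lonrf1 the symbol lonrf4, and RefSeq, in its assembly GRCz12tu, lists a single gene lonrf1 with lonrf1l and lonrf4 as synonyms. The ratio of lonrf1l to lonrf1, in FPKM (the deposited values scaled for transcript length and depth, which allow levels of different genes to be set side by side), was 1.13, 1.33 and 2.21 at 0 hpl, 3.46, 1.77 and 3.23 at 8 hpl and 1.98, 3.08 and 1.90 at 16 hpl. The 3 libraries that stood apart had the 3 highest ratios, so the entries did not change in a fixed proportion. With both counted as 1 gene, the log2 fold change was 2.86 at 8 hpl over 0 hpl, 0.62 at 16 hpl over 0 hpl (adjusted p = 0.326) and -2.24 at 16 hpl over 8 hpl.

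wdr76 (ENSDARG00000053554) was almost unread at 0 hpl. It had 18, 16 and 12 expected counts there, 2045, 682 and 1949 at 8 hpl and 230, 115 and 67 at 16 hpl. In CPM these were 1.03, 0.715 and 0.642 at 0 hpl, 77.5, 27.4 and 87.3 at 8 hpl and 9.95, 5.45 and 5.36 at 16 hpl. The 3 groups did not overlap, and even the lowest 8 hpl library was well above the highest 16 hpl one. The log2 fold change was 6.33 ± 0.53 at 8 hpl over 0 hpl, an 80.4-fold difference and the 18th largest rise of the 19875 genes tested, and -3.20 ± 0.44 at 16 hpl over 8 hpl. Without the 3 libraries that stood apart these were 5.10 and -1.81.

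rilp (ENSDARG00000074660) had the smallest rise. Its levels were 18.8, 20.5 and 14.7 CPM at 0 hpl, 49.0, 37.0 and 45.5 CPM at 8 hpl and 17.6, 16.6 and 19.4 CPM at 16 hpl. Every 8 hpl library lay above the rest, and all 16 hpl values fell inside the range of 0 hpl. The log2 fold change was 1.28 ± 0.19 at 8 hpl over 0 hpl, or 2.44-fold, and -1.30 ± 0.19 at 16 hpl over 8 hpl. It was 1.03 and -0.99 without the 3 libraries that stood apart.

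crtac1a (ENSDARG00000059826) had the largest mean rise and the widest spread. Its levels were 2.52, 1.30 and 1.07 CPM at 0 hpl, 334, 21.8 and 352 CPM at 8 hpl and 24.2, 78.4 and 26.7 CPM at 16 hpl. All lesioned libraries lay above those of 0 hpl, but 8 hpl replicate 2 was below all 3 libraries of 16 hpl, and the 16 hpl libraries were led by replicate 2. Its highest 8 hpl value was 16.1 times the lowest, where 95% of the 12378 genes of at least 5 CPM were at or below 3.25 times.

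fam213b (ENSDARG00000029795), which newer tables name prxl2b, spread in the same way. Its levels were 2.29, 1.56 and 1.82 CPM at 0 hpl, 168, 24.0 and 177 CPM at 8 hpl and 29.9, 37.7 and 19.2 CPM at 16 hpl. Replicate 2 of 8 hpl again lay among the 16 hpl libraries, and the highest 8 hpl value was 7.39 times the lowest. Its expected counts were whole numbers, within 0.02, in 0 of 9 libraries. Those of the other 5 genes were whole in 9 of 9, as in 53.2% of all genes tested. Some reads of fam213b were therefore shared by the counting program with another gene.

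For both genes the size of the fall between 8 and 16 hpl depended on which libraries were in the fit. The log2 fold change of crtac1a was 7.19 ± 1.06 at 8 hpl over 0 hpl and -2.45 ± 0.84 at 16 hpl over 8 hpl, and that of fam213b was 6.03 ± 0.72 and -2.08 ± 0.59. Without 8 hpl replicates 1 and 3 and 16 hpl replicate 2, which leaves replicate 2 alone at 8 hpl, the rises were 3.75 and 3.67. In that fit the differences between 16 and 8 hpl changed sign, to 0.23 for crtac1a and 0.05 for fam213b. Leaving out 1 library at a time kept the fall, between -3.21 and -2.04 for crtac1a and between -2.57 and -1.73 for fam213b. The largest fall of crtac1a came without 16 hpl replicate 2. Among single libraries, all 3 replicates of 8 hpl were above the other 6 libraries for lonrf1, lonrf1l, wdr76 and rilp, as in 3.75% of the genes tested. The genes were chosen by such differences, so this is a description. This did not hold for crtac1a and fam213b.

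**Figure D1:**
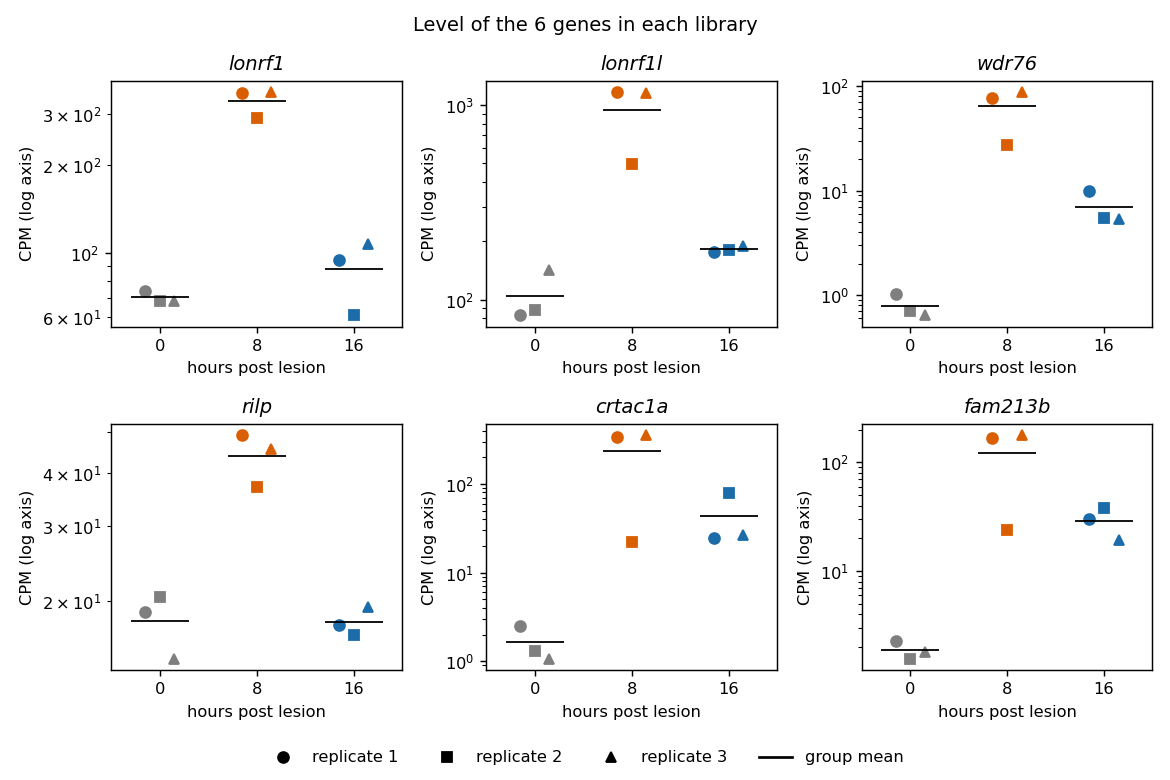
CPM (log axis) of each of the 6 genes in the 9 libraries by hours post lesion, with a marker shape for each replicate number and a line through the group means. The 8 hpl libraries lie above all others for lonrf1, lonrf1l, wdr76 and rilp, whereas 8 hpl replicate 2 lies with the 16 hpl libraries at 21.8 CPM for crtac1a and 24.0 CPM for fam213b.

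The comparison of 16 hpl with 0 hpl is not named in the wording by which the genes were chosen, although it shares its libraries with the other comparisons. For the 6 genes it is partly constrained by that choice. Their calls and p-values here are therefore a description, not a separate test. It gave 288 genes higher (1.45%) and 127 lower (0.639%) among the 19875 tested. Of the 6 genes, 3 were higher at 16 hpl than at 0 hpl and 3 did not pass. wdr76 averaged 6.92 ± 2.62 CPM at 16 hpl and 0.796 ± 0.207 CPM at 0 hpl (SD, n = 3 each), a log2 fold change of 3.13 ± 0.49 (edgeR adjusted p = 0.0117). fam213b averaged 29.0 ± 9.30 CPM at 16 hpl and 1.89 ± 0.369 CPM at 0 hpl (SD, n = 3 each), a log2 fold change of 3.94 ± 0.66 (edgeR adjusted p = 0.0167). crtac1a averaged 43.1 ± 30.6 CPM at 16 hpl and 1.63 ± 0.780 CPM at 0 hpl (SD, n = 3 each), a log2 fold change of 4.73 ± 0.96 (edgeR adjusted p = 0.0364). In all 3 genes every 16 hpl library lay above every 0 hpl library, as in 10.7% of the genes tested.

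These calls were not equally stable. The call of wdr76 was lost without 0 hpl replicate 1, 2 or 3, at adjusted p of 0.0552, 0.0694 and 0.0728, and that of fam213b was lost without the same libraries, at 0.0860, 0.0944 and 0.0930. The call of crtac1a passed in only 1 of the 9 fits that left out a library, the one without 8 hpl replicate 2, and its adjusted p reached 0.168. Without the 3 libraries that stood apart the log2 fold changes were 3.29 for wdr76, 3.71 for fam213b and 3.98 for crtac1a.

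The genes that did not pass were nearer to their 0 hpl level. The log2 fold change at 16 hpl over 0 hpl was -0.01 ± 0.19 for rilp (edgeR adjusted p = 0.986), with an approximate 95% interval from its SE of -0.39 to 0.36. For lonrf1 it was 0.32 ± 0.22 (adjusted p = 0.572), with an interval of -0.11 to 0.75. For lonrf1l it was 0.80 ± 0.33 (adjusted p = 0.293, edgeR unadjusted p = 0.0371), with an interval of 0.145 to 1.45. Every 16 hpl library of lonrf1l also lay above every 0 hpl library. These intervals assume a normal spread, which makes them too narrow with so few libraries. Without the 3 libraries that stood apart, the log2 fold changes were 0.53 for lonrf1, 0.81 for lonrf1l and 0.04 for rilp. In the authors' deposited table, lonrf1 and lonrf1l pass 0.05 at 16 hpl, with log2 fold changes of 0.44 (adjusted p = 0.0439) and 0.94 (adjusted p = 0.0076), and rilp does not, at -0.06 (adjusted p = 0.845). The share of the log2 rise of 8 hpl still present at 16 hpl was -0.918% for rilp, 14.3% for lonrf1, 25.1% for lonrf1l, 49.4% for wdr76, 65.4% for fam213b and 65.9% for crtac1a. This is a share on the log2 scale and not of the added CPM. wdr76, with 49.4%, averaged 0.796 CPM at 0 hpl, 64.05 CPM at 8 hpl and 6.92 CPM at 16 hpl. The share of the log2 rise moved with single libraries. For rilp it ran over -12.3 to 7.04% (without 0 hpl replicate 3 and without 0 hpl replicate 2). For lonrf1 it ran over 6.68 to 23.3% (without 16 hpl replicate 3 and without 16 hpl replicate 2). Without the 3 libraries that stood apart the share of the log2 rise was 3.78% for rilp, 25.9% for lonrf1, 35.8% for lonrf1l, 64.4% for wdr76, 101% for fam213b and 106% for crtac1a.

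**Figure D2:**
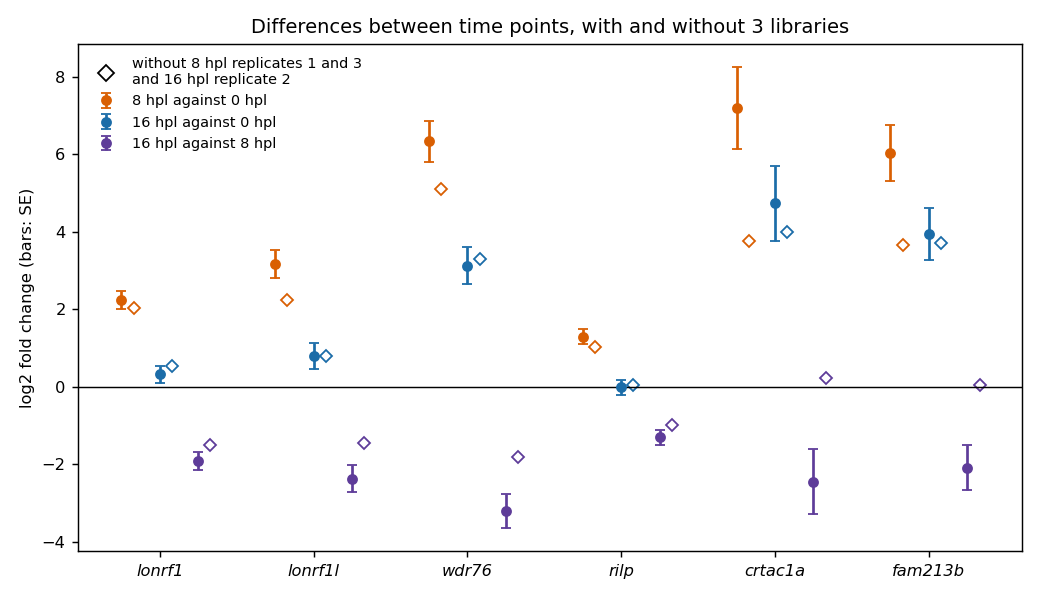
Log2 fold change of each of the 6 genes in the 3 comparisons, with bars of 1 SE, and open diamonds for the fit without 8 hpl replicates 1 and 3 and 16 hpl replicate 2. For 16 hpl over 8 hpl, the diamonds of crtac1a (0.23) and fam213b (0.05) lie on the other side of 0 from their filled points (-2.45 and -2.08), and those of the other 4 genes keep the sign.

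Per length, lonrf1l was the most abundant of the 6 in the mean of every group. At 0 hpl the mean FPKM was 50.2 ± 16.5 for lonrf1l, 32.5 ± 2.06 for lonrf1, 11.5 ± 1.78 for rilp, 2.07 ± 0.681 for fam213b, 1.49 ± 0.154 for crtac1a and 0.584 ± 0.151 for wdr76 (SD, n = 3). For crtac1a the ratio of FPKM to CPM there was 0.659, 1.11 and 1.27, on 44, 29 and 20 expected counts. Its SD in FPKM was thus narrower than in CPM (1.63 ± 0.780), and its FPKM at 0 hpl is uncertain. At 8 hpl the order was lonrf1l with 445 ± 181.5 FPKM, crtac1a with 163.5 ± 128, fam213b with 157 ± 110, lonrf1 with 154 ± 19.2, wdr76 with 46.5 ± 23.5 and rilp with 27.7 ± 3.95 (SD, n = 3). The means of crtac1a, fam213b and lonrf1 at 8 hpl differed by less than the spread of their libraries. At 16 hpl lonrf1l had 86.5 ± 2.13 FPKM, lonrf1 39.1 ± 9.70, fam213b 37.3 ± 10.3, crtac1a 30.2 ± 21.0, rilp 11.4 ± 0.779 and wdr76 5.06 ± 1.94 (SD, n = 3). There lonrf1, fam213b and crtac1a could not be ordered beyond their spread, and wdr76, the least abundant at 0 and 16 hpl, was above rilp in the mean at 8 hpl alone.

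Genes with the most similar course were sought by the Pearson correlation of log2 CPM over the 9 libraries. The points of such a correlation share library and depth, and it is given as a description. It does not measure the size of a change. The courses of crtac1a and fam213b were nearly the same as each other (r = 0.991), and lonrf1 was close to rilp (r = 0.965), whereas rilp and crtac1a were the least alike of all pairs (r = 0.703). Nearest to lonrf1 were cry1a, a light-induced clock repressor (r = 0.987), abcb6a (0.969) and slx4, a scaffold of DNA repair nucleases (0.966), beside rilp. cry1a had 353, 359 and 379 CPM at 0 hpl, 866, 714 and 925 CPM at 8 hpl and 482, 342 and 485 CPM at 16 hpl, so it too was high in all 8 hpl libraries.

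lonrf1l was nearest to FAM195A (r = 0.987), coq7, an enzyme of ubiquinone synthesis (0.984), abcb6a (0.981) and gsap (0.981). wdr76 was nearest to dcps, a scavenger decapping enzyme (0.983), the linker histone h1fx (0.979), eif4e3, a cap-binding protein (0.978), and gsap (0.976). Beside lonrf1, rilp was nearest to slco4a1, an organic anion transporter (0.975), rc3h1 (0.965) and faxca (0.953). For slco4a1, rc3h1 and faxca the log2 fold changes at 8 hpl over 0 hpl were 1.01, 0.43 and 1.46. That of rc3h1 did not pass (edgeR adjusted p = 0.211). abcb6a and gsap each stood near more than 1 of the 6 genes.

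crtac1a was nearest to fam213b, then to fus, an RNA-binding protein (0.990), wdr24 (0.990) and blvra, biliverdin reductase (0.986). For fus, wdr24 and blvra the log2 fold changes at 8 hpl over 0 hpl were 1.395, 0.45 and 6.08. That of wdr24 did not pass (edgeR adjusted p = 0.274). fam213b was nearest to fus (0.993), wdr24 (0.991), crtac1a and mmrn2a (0.988). blvra had 0.515, 0.626 and 0.535 CPM at 0 hpl, 56.0, 9.61 and 49.5 CPM at 8 hpl and 5.28, 11.8 and 8.09 CPM at 16 hpl. In blvra as in crtac1a, 8 hpl replicate 2 was the low library of its group and 16 hpl replicate 2 the high one of its own.

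The light-induced clock gene per2 had 11.6, 21.7 and 42.6 CPM at 0 hpl, 806, 278 and 831 CPM at 8 hpl and 81.7, 244 and 108 CPM at 16 hpl. The libraries that stood apart were the high ones within their own groups, but 16 hpl replicate 2 was below 8 hpl replicate 2. The correlation of per2 over the 9 libraries was 0.928 with crtac1a, 0.940 with fam213b, 0.935 with lonrf1l, 0.926 with wdr76, 0.798 with lonrf1 and 0.754 with rilp. The part of the state that sets these libraries apart in the rises of the 6 genes was not tested.

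**Figure D3:**
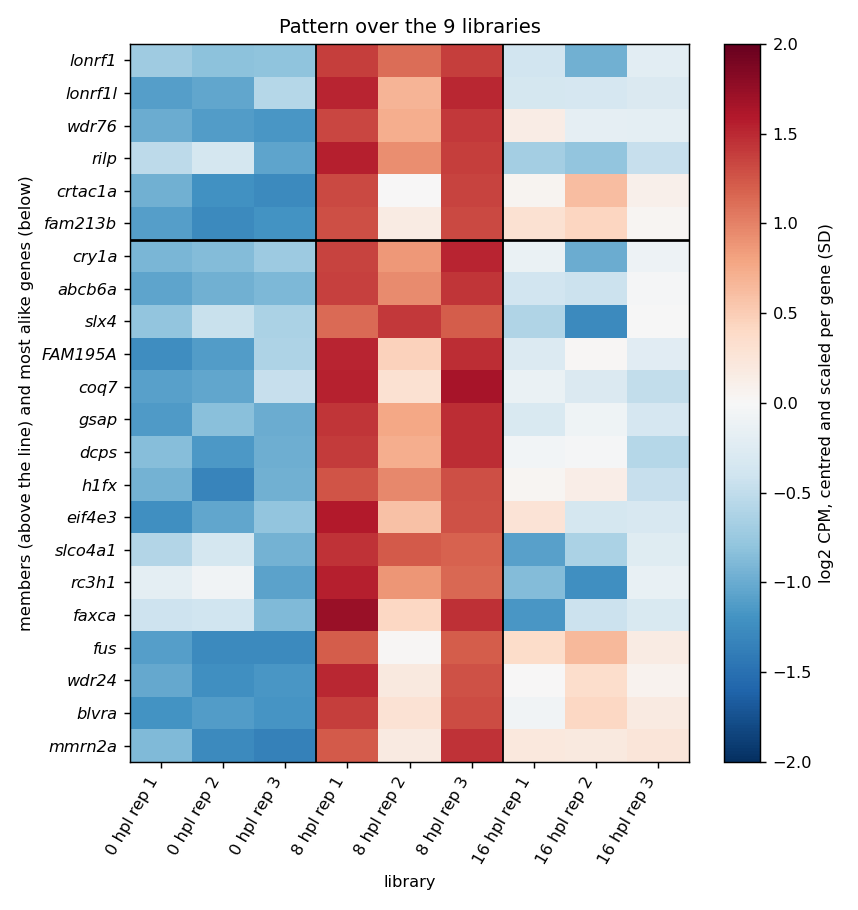
Heat map of the 6 genes and the genes nearest to each by correlation over the 9 libraries, in log2 CPM centred and scaled within each gene, with libraries in columns ordered by hours post lesion. The 6 genes lie above the line and the nearest genes below it. The columns of 8 hpl replicates 1 and 3 are high in both parts. In the rows of crtac1a and fam213b, 8 hpl replicate 2 is close to or below the 16 hpl columns.

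A list of genes known for induction by light in zebrafish held 21 tested genes beside lonrf1 and lonrf1l, and was set beside them. The list was drawn up with earlier results of these data known, so its counts and medians are a description. Of these 21, 9 were higher and 0 lower at 8 hpl than at 0 hpl (edgeR, 13 and 1 at an unadjusted p under 0.05, DESeq2 12 and 1), and 6 were higher and 0 lower at 16 hpl than at 0 hpl (12 and 0 unadjusted, DESeq2 9 and 0). The median log2 fold change of the list was 1.36 at 8 hpl and 0.93 at 16 hpl over 0 hpl, where all genes had 0.02 and 0.03. Of all genes tested, 9.3% were higher and 6.9% lower at 8 hpl over 0 hpl at an unadjusted p under 0.05, and 4.48% and 2.51% by DESeq2. At 16 hpl over 0 hpl these shares were 8.71% and 6.07% unadjusted and 3.71% and 2.15% by DESeq2, and between 16 and 8 hpl 6.64% higher and 7% lower unadjusted and 1.5% and 1.85% by DESeq2. The photolyase relatives cry5 and cry-dash rose by log2 5.33 and 3.00 at 8 hpl (adjusted p = 0.000938 and 0.00072), and were still higher than at 0 hpl at 16 hpl, by 3.13 and 1.98. The DNA damage recognition genes xpc and ddb2 rose by 2.94 and 1.71 at 8 hpl (adjusted p = 0.00333 and 0.0086), as did fech, the last enzyme of haem synthesis, by 2.63 (adjusted p = 0.00192).

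Between 16 and 8 hpl, edgeR called 0 of the 21 genes in either direction, with 10 lower and 2 higher at an unadjusted p under 0.05, and DESeq2 called 7 lower and 0 higher. The median log2 fold change of the list was -0.42, where all genes had 0.01. ddb2 had 15.4, 11.3 and 13.4 CPM at 0 hpl, 38.1, 59.8 and 32.8 CPM at 8 hpl and 39.0, 31.0 and 40.4 CPM at 16 hpl. Its 8 and 16 hpl libraries overlapped, and its highest library was 8 hpl replicate 2, the low one for crtac1a. Without 0 hpl replicate 1 the count of the list at 16 hpl over 0 hpl was 2, and without 0 hpl replicate 2 or 3 it was 3. Over all genes, 77, 103 and 94 were higher in the fits without 0 hpl replicates 1, 2 and 3, against 288 with all 9 libraries. The call of ddb2 at 8 hpl was lost without 0 hpl replicate 2 (adjusted p = 0.0565), and that of cry5 at 16 hpl without 0 hpl replicate 1 or 3 (adjusted p up to 0.0592). Such a course was not particular to the light-induced list. Of 30 other tested clock genes, edgeR called 8 higher and 0 lower at 8 hpl over 0 hpl (DESeq2 10 and 1), with a median of 0.20. Between 16 and 8 hpl, 11 of them were lower and 0 higher unadjusted (edgeR 0 calls, DESeq2 5 lower and 0 higher). The 8 calls of clock genes at 8 hpl over 0 hpl passed in 3 to 6 of the 9 fits that left out a library. The clock gene nfil3 had log2 fold changes of 5.35 at 8 hpl over 0 hpl and -3.63 at 16 hpl over 8 hpl. The latter did not pass (edgeR adjusted p = 0.109). Its 8 hpl levels were 449, 35.9 and 462 CPM, with replicate 2 below the 39.3 CPM of 16 hpl replicate 2. Without the 3 libraries that stood apart its rise was 2.21.

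**Figure D4:**
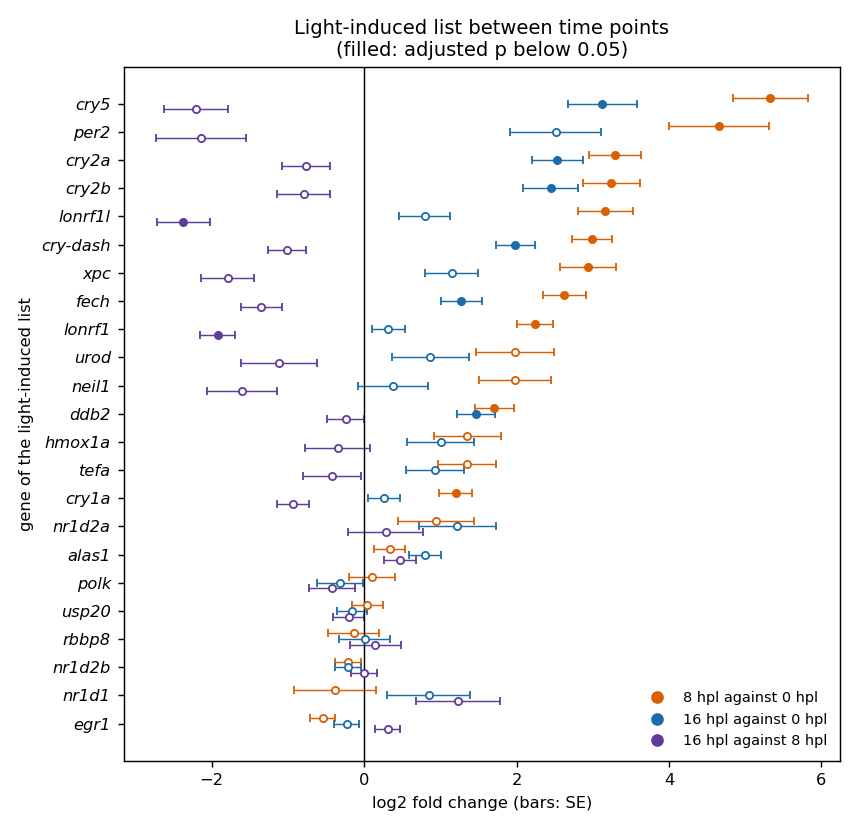
Log2 fold change with bars of 1 SE for the 23 tested genes of the light-induced list, lonrf1 and lonrf1l among them, in the 3 comparisons, with filled points for an adjusted p under 0.05. At 8 hpl over 0 hpl 11 points are filled, from cry1a at the low end to cry5 (5.33) at the high end, and at 16 hpl over 8 hpl lonrf1 and lonrf1l are the filled points.

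Relatives and partners of the 6 genes were read next, and their counts stand beside the same shares of all genes, 1.9% higher and 0.931% lower at 8 hpl over 0 hpl by edgeR. LONRF2, the other Lonrf gene tested, had 106, 109.7 and 108 CPM at 0 hpl, 182, 173 and 176 CPM at 8 hpl and 136, 83.9 and 118 CPM at 16 hpl. All 3 of its 8 hpl libraries lay above the other 6, but the log2 fold change of 0.71 at 8 hpl over 0 hpl did not pass (edgeR adjusted p = 0.0860), nor did that of -0.65 at 16 hpl over 8 hpl (adjusted p = 0.198). crbn, a LON-domain subunit of another CUL4 ligase, had a log2 fold change of -0.25 at 8 hpl over 0 hpl (adjusted p = 0.556).

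Among 21 other tested genes of the CUL4 and DDB1 ligase, of its substrate receptors and of the partners of WDR76, 3 rose at 8 hpl over 0 hpl and 0 fell (edgeR, 4 and 0 at an unadjusted p under 0.05, DESeq2 3 and 0), with a median log2 fold change of 0.06. They were ddb2, which the light-induced list also holds, hells and dcaf12, a substrate receptor. hells had 11.7, 9.70 and 10.4 CPM at 0 hpl, 64.7, 17.6 and 72.1 CPM at 8 hpl and 13.1, 16.5 and 8.81 CPM at 16 hpl. The 8 hpl libraries of hells were all above the others, with replicate 2 low as in wdr76, and 16 hpl overlapped 0 hpl. Its log2 fold change was 2.28 ± 0.46 at 8 hpl over 0 hpl (adjusted p = 0.0311). The call passed in 3 of 9 fits that left out a library, with adjusted p up to 0.136 in those without 0 hpl replicate 1, 2 or 3, 8 hpl replicate 1 or 3 or 16 hpl replicate 1, and without the 3 libraries that stood apart the log2 fold change was 0.73 (adjusted p = 0.183). dcaf12 passed in 4 of 9 fits that left out a library, not without 0 hpl replicate 1, 2 or 3 or 8 hpl replicate 1 or 3. Its log2 fold change at 8 hpl over 0 hpl was 0.76 without the 3 libraries.

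Of 20 tested genes of Rab7, its other effectors, tethering complexes and dynein-dynactin, edgeR called 0 in any comparison. At 8 hpl over 0 hpl, 0 were higher and 1 lower at an unadjusted p under 0.05, and DESeq2 called 0. The median log2 fold change there was 0.08, and rab7 itself had -0.01 (adjusted p = 0.984). Of 26 lysosomal genes, 1 rose at 8 hpl over 0 hpl and 0 fell (7 and 1 unadjusted, DESeq2 3 and 0), a share that is not a result about the list. The gene was lamp1, a membrane protein of the lysosome, with 51.5, 42.0 and 45.8 CPM at 0 hpl, 103, 113 and 121 CPM at 8 hpl and 95.3, 89.8 and 88.4 CPM at 16 hpl. Its log2 fold change was 1.28 at 8 hpl over 0 hpl (adjusted p = 0.00328), passed in 9 of 9 fits that left out a library, and was 0.97 at 16 hpl over 0 hpl (adjusted p = 0.0130), a call lost without 0 hpl replicate 1, 2 or 3 (adjusted p up to 0.0851). Unlike those of rilp, all 16 hpl libraries of lamp1 lay above its 0 hpl libraries.

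For crtac1a, 8 tested genes of the Nogo receptor system had 0 calls by edgeR in each comparison, with a median log2 fold change of -0.39 at 8 hpl over 0 hpl (0 higher and 1 lower at an unadjusted p under 0.05, DESeq2 0). For fam213b, 16 peroxiredoxin, thioredoxin and Fam213 genes had 0 calls by edgeR at 8 hpl over 0 hpl (3 higher and 2 lower unadjusted, DESeq2 1 and 1), and its paralogs had log2 fold changes of 0.23 for fam213aa (adjusted p = 0.682) and 1.42 for fam213ab (adjusted p = 0.141). Of 13 genes of prostaglandin synthesis and signalling, 1 rose at 8 hpl over 0 hpl and 0 fell (6 and 0 unadjusted, DESeq2 3 and 0). It was ptgs2b, a cyclooxygenase, with 10.0, 10.2 and 6.79 CPM at 0 hpl, 34.8, 73.4 and 40.0 CPM at 8 hpl and 25.2, 11.5 and 24.2 CPM at 16 hpl. Its log2 fold change was 2.45 at 8 hpl over 0 hpl (adjusted p = 0.0106), lost without 0 hpl replicate 1, 2 or 3 at adjusted p up to 0.0657, and its highest library was 8 hpl replicate 2, the lowest one of fam213b in that group.

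Neighbouring genes were also read. By their order in RefSeq's GRCz12tu assembly, 6 tested protein-coding genes stand next to 1 of the 6 genes, doc2d, scarf1, prpf8, golga7ba, r3hcc1l and slc45a1, and edgeR called 0 of them in any comparison. No tested neighbour was found for wdr76, and for fam213b and lonrf1 only the neighbour on 1 side was tested. RefSeq lists lonrf1 and lonrf1l as 1 gene, so which of them doc2d adjoins is not known. The closest to passing was r3hcc1l, beside crtac1a, with a log2 fold change of 0.83 ± 0.23 at 8 hpl over 0 hpl (adjusted p = 0.0897). The other 5 lay between -0.05 and 0.35.

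Markers of the cell types that the sort could hold were summed in each library. Over 13 tested Müller glia markers, levels were 1393 to 2098 CPM at 0 hpl, 2057 to 2372 CPM at 8 hpl and 2337 to 2949 CPM at 16 hpl, with 0 of the 13 called at 8 hpl over 0 hpl. The 18 rod markers summed to 74802 to 123110 CPM at 0 hpl, 97743 to 102260 CPM at 8 hpl and 45247 to 77211 CPM at 16 hpl. The 18 cone markers summed to 11395 to 14755 CPM at 0 hpl, 3653 to 6683 CPM at 8 hpl and 4633 to 8812 CPM at 16 hpl, with PDE6H the largest part in each 0 and 16 hpl library. Of the 18 cone markers, 6 were called lower and 0 higher at 8 hpl over 0 hpl, and 7 lower and 0 higher at 16 hpl over 0 hpl. Of the 18 rod markers, 2 were called lower and 0 higher at 8 hpl, and 1 lower and 0 higher at 16 hpl. Among all genes tested, 0.931% were lower at 8 hpl and 0.639% at 16 hpl. At 0, 8 and 16 hpl, 10 bipolar markers summed to 2746 to 3130.5, 2972 to 3327 and 2728 to 7100 CPM. The 7100 CPM was in 16 hpl replicate 2, where their mean log2 deviation from each gene's mean was -0.079. The 16 amacrine, horizontal and ganglion cell markers summed to 899 to 1208, 872 to 968 and 736 to 785 CPM. The 2 vascular markers summed to 18.8 to 23.0, 16.4 to 23.5 and 19.0 to 29.3 CPM. The 11 microglia and leukocyte markers summed to 23.7 to 37.4 CPM at 0 hpl, 22.5 to 32.4 CPM at 8 hpl and 44.3 to 330 CPM at 16 hpl, led by mmp9 in 16 hpl replicate 2. The 6 markers of the retinal pigment epithelium summed to 48.7 to 63.4 CPM at 0 hpl, 63.5 to 81.8 CPM at 8 hpl and 51.0 to 62.1 CPM at 16 hpl, and theirs was the marker list whose sum was higher in every 8 hpl library than in all the others. That sum was led by rgra, with a log2 fold change of 0.61 at 8 hpl over 0 hpl, while edgeR called 0 of the 6 genes and their median log2 fold change was -0.32. The part of other cell types in the rises of the 6 genes was not tested.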

How the data were processed

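RNA-seq libraries from sorted Müller glia, 3 at each of 0, 8 and 16 hpl, were analysed from the deposited tables. The submitters' processing notes name RSEM 1.2.22 and Bowtie2 2.2.6, limma 3.24.15 and edgeR 3.10.2, FastQC 0.10.1, and the trimmers cutadapt 1.4.2 and Trim Galore 0.2.7, without roles, and the genome build Zv9. No source used here gives the annotation release. The authors deposited RSEM expected counts per Ensembl gene, without normalization, and an FPKM table that they call normalized. The authors' deposited comparison table gives log2 fold changes and adjusted p-values for 8 and 16 hpl over 0 hpl, with limma's column names per the file headers.

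Expected counts were rounded and fitted in edgeR 4.0.16 (R 4.3.3) after filterByExpr by group, with TMM factors and robust quasi-likelihood F tests, 1 fit of all 9 libraries, two-sided, adjusted by Benjamini-Hochberg over 19875 genes at 0.05. SE was obtained by dividing the size of the log2 fold change by the square root of F. The fit was tested on simulated data. Symbols came from the authors' table or, where absent there, from a gene name table. DESeq2 1.42.0, other factors, no filter, a replicate block and fits that leave out libraries were alternatives. Depth of 11714633 to 26608088 counts per library makes levels near 1 CPM the least certain.

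The genes and gene lists were chosen with earlier results of these data known. By rule the text names the 6 genes, the 4 genes nearest to each by Pearson correlation of log2(CPM + 0.5) among named genes averaging 5 CPM or more, paralogs, up to 4 genes of each list by smallest adjusted p, and per1b, per2 and cry5. The genes zgc:65997, abcb6a, rab7, rho and those beside the 6 on the chromosome were named after their values were seen. Of the genes the rule takes from lists, only some are named. No sequence is printed, since sequences were not analysed here.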

Additional observations from a re-analysis of the deposited data

How the results depend on the processing

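The number of genes called at 8 hpl over 0 hpl was 563, and was 1391 with DESeq2, 1008 with only both groups in the fit, 147 with the replicate block, 1035 without the 3 libraries that stood apart, and 95 to 1320 over the fits that left out each library in turn. At 16 hpl over 0 hpl it was 415, and was 1176, 323, 168 and 1586 in the same order, and 103 to 661 without a library. At 16 hpl over 8 hpl it was 20, and was 668 with DESeq2, 44 with no filter, 0 with only both groups (edgeR, 1962 at an unadjusted p under 0.05), 0 with the replicate block (2027 unadjusted), 98 without the 3 libraries, and 0 to 677 without a library. Genes higher at 8 hpl and lower again at 16 hpl numbered 6, of which 4 were selected genes, and 203 (5 selected) with DESeq2, 14 (4) with no filter, 0 with only both groups and with the block, 35 (2) without the 3 libraries, and 0 to 309 without a library. The differences of crtac1a and fam213b between 16 and 8 hpl reversed, to 0.23 and 0.048, without the 3 libraries, which leaves 1 library at 8 hpl. The cause was not tested.

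For lonrf1, lonrf1l, wdr76 and rilp, the log2 fold change at 16 hpl over 8 hpl kept its sign in every fit run. These genes were chosen by this fall, so the kept sign is a description. Without a library it lay between -2.10 and -1.72, -2.68 and -2.20, -3.57 and -2.92, and -1.41 and -1.22, in that order. In the same order, edgeR called the fall in 2, 1, 1 and 2 of the 9 fits without a library. The replicate block ended the calls of crtac1a (adjusted p = 0.117) and fam213b (0.0536) at 16 hpl over 0 hpl, and no filter ended that of crtac1a (0.135). The block also ended the calls of crtac1a (0.0525) and rilp (0.0544) at 8 hpl over 0 hpl. Whether replicate numbers pair libraries was not settled. Between same-numbered libraries, deviations from the group mean correlated by -0.0349, 0.286 and 0.159 for 8 and 0 hpl. For 16 and 0 hpl they correlated by 0.0616, -0.217 and -0.0845, and for 16 and 8 hpl by -0.404, -0.615 and -0.567. Deviations within a group of 3 libraries depend on each other, so these values cannot decide the question.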
